A study of Mus musculus with 7 samples.

Results

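Cohesin, detected by ChIP-seq of its subunit Rad21, bound 2620 clustered distal sites without CTCF on the autosomes of female mouse liver. They were selected on the peak lists alone. A Rad21 peak was kept when it overlapped no CTCF peak by 1 bp (a cohesin-non-CTCF, or CNC, site) and its summit lay over 1 kb from every annotated transcript start. At least 2 other such summits also had to lie within 12500 bp. The 2620 peaks were 17.4% of 15086 autosomal distal CNC peaks and 3.82% of all 68656 Rad21 peaks. When distal CNC peaks with summits within 12500 bp of each other were joined, they formed 910 clusters of 3 or more peaks. These clusters held 3304 peaks, including 684 end peaks with only 1 neighbour, which are not counted among the 2620. The count depended strongly on the peak thresholds. It was 92 when Rad21 peaks needed a −log10 q (the peak caller's adjusted significance) of at least 10. It was 5662 when only CTCF peaks at that level counted.

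Liver chromatin came from 8-week-old female mice of the outbred stock Crl:CD1(ICR), for which the labels name no treatment or genetic change. It was immunoprecipitated with an antibody to Rad21 (3 libraries) or to CTCF (4 libraries). Nuclei were isolated from liver tissue, so weak binding in most cells and strong binding in few cells cannot be told apart. No expression was measured in these libraries, so the tissue was not checked against the levels of its marker genes. The authors called peaks on the pooled libraries of each antibody. Variation between mice therefore cannot be estimated, no value has an SD, and the peak lists do not give the read depth behind a peak. A region without a CTCF peak can still be bound by CTCF below the calling threshold.

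Cohesin is a ring-shaped complex that holds DNA strands together and extrudes chromatin loops. Loop extrusion commonly halts where CTCF is bound, and most strong cohesin peaks are CTCF sites. Cohesin also loads and accumulates at active promoters and enhancers, where it is found with Mediator, the loading factor NIPBL and tissue-specific transcription factors. Dense groups of enhancers near genes of cell identity are a known feature of differentiated cells. In hepatocytes, the nuclear receptor HNF4A, the FOXA pioneer factors and the C/EBP leucine zipper factors occupy many enhancers.

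The sequences of 201 bp centred on the strongest peak of 6 large clusters are shown, since the comparisons below rest on words found in such windows. The clusters are named by the protein-coding gene with the nearest start. Sequences are from the plus strand of mm9, and capitals mark matches to the words defined below.
Bdh1, chr16:31565058-31565258: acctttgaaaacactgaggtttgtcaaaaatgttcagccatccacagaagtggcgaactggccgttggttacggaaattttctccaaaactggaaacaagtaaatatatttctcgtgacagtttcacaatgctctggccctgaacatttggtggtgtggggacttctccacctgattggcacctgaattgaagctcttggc
3300002A11Rik, in Foxn3, chr12:100472662-100472862: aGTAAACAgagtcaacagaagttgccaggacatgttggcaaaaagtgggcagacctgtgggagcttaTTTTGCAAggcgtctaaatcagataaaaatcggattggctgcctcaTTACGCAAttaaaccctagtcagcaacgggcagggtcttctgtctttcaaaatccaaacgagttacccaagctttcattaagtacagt
Dbx1, in Nav2, chr7:56760611-56760811: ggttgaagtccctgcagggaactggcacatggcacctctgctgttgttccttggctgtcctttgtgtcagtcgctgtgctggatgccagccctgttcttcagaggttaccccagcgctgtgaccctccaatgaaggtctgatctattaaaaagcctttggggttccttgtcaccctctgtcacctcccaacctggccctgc
Bcl2l1, chr2:152640388-152640588: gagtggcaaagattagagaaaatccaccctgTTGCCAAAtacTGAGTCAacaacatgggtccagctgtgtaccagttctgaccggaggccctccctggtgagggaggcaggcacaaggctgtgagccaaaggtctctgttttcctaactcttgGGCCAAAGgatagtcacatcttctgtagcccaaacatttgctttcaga
Foxo3, chr10:41987932-41988132: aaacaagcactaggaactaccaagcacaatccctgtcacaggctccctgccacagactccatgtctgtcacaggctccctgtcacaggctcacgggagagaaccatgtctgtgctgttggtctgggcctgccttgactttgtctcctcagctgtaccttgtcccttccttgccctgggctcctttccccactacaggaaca
B130024G19Rik, chr7:77680972-77681172: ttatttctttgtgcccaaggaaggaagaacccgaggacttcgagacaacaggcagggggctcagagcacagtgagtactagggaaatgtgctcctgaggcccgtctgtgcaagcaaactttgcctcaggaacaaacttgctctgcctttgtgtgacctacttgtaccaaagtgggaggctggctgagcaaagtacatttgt
The Foxn3 window held 2 C/EBP words and 1 FOXA word. The Bcl2l1 window held a C/EBP word, an AP-1 word and a nuclear receptor word. The other windows in this set held none of the words searched.

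The clusters were small in most cases. Of the 910, 558 had 3 peaks, 215 had 4, 81 had 5 and 56 had 6 or more. The distance from first to last summit had a median of 13063.5 bp (quartiles 9009.75 and 18715.8 bp) and ran from 712 to 54969 bp. The shortest cluster lay in Rab43, and the longest extended across the start of Mylk. Neighbouring summits of a cluster were a median of 5440.5 bp apart, and 403 of 2394 such gaps (16.8%) were under 1 kb. Members with exactly 2 others within the linking distance numbered 1811, with a median fold enrichment of 3.32. Just outside the rule, 4452 distal CNC peaks had exactly 1 other and a median of 3.48. The member closest to a transcript start was 1002 bp away, and the closest CTCF peak ended 4 bp from a member.

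**Figure D1:**
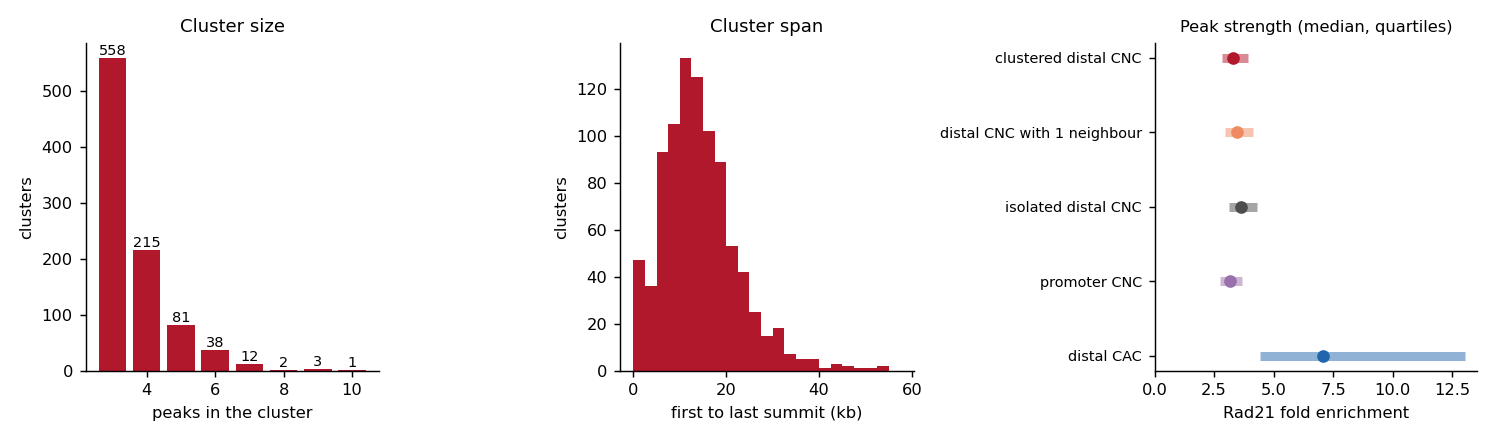
Left, number of clusters by the number of distal CNC peaks they hold. Centre, number of clusters by the distance in kb from first to last summit. Right, Rad21 fold enrichment of 5 classes of peaks, with points at medians and bars from the lower to the upper quartile. Most clusters (558 of 910) have 3 peaks, and the clustered peaks lie at lower fold enrichment (median 3.28) than distal CAC peaks (7.06).

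Clustered peaks had low fold enrichment, as other CNC peaks did. Fold enrichment is the authors' ratio of signal at the summit over local background. Its median was 3.28 for clustered peaks (quartiles 2.85 and 3.94, highest 8.86), 3.48 for distal CNC peaks with 1 neighbour and 3.65 for 8014 isolated ones, which had no other within 12500 bp. Promoter CNC peaks had a lower median, 3.15. The median was 7.06 for 35789 distal Rad21 peaks that overlapped a CTCF peak (cohesin-and-CTCF, or CAC, sites). Within the clustered peaks the median fell with the number of neighbours, from 3.32 with 2 others to 3.25 with 3, 3.20 with 4 and 2.83 for the 30 peaks with 5 or more. The medians of −log10 q, the peak caller's adjusted significance, were closer, at 6.80 for clustered and 6.71 for isolated peaks. Median width was 317 and 296 bp. The rule was applied to these same peak calls, so these values are descriptions without a test. The local background is estimated around each peak, and the part of neighbouring peaks in that estimate was not tested.

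The windows of the clustered peaks were mostly without a CTCF motif. A matrix 20 bp wide was learned from strong CTCF peaks, and its consensus was TGGCCACCAGGGGGCGCCAG when learned on odd-numbered autosomes. A match above the score reached in 1% of flanking windows was found within 100 bp of the summit in 22 of 2620 clustered peaks (0.840%, 95% Wilson interval 0.555 to 1.27%). It was found in 361 of 8014 isolated peaks (4.50%), a difference of −3.66 percentage points (95% Newcombe interval −4.22 to −3.06). In distal CNC peaks with 1 neighbour the share was 1.64%, in promoter CNC peaks 1.73% and in distal CAC peaks 56.6%. The classes were chosen by overlap with the CTCF peaks from which the matrix was learned. The gap between CNC and CAC peaks therefore follows from the selection. The clustered share was at the level set by the flanking windows. With only the strongest member of each cluster, compared with all isolated peaks, the difference was −3.52 points (−4.18 to −2.54). With −log10 q of at least 10 in the Rad21 list it was −3.56 points, and the interval included 0 (−4.26 to 0.493). Over all 3304 peaks of the clusters, which include the end peaks that are not members, matches were present in 34 of the 910 clusters (3.74%).

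Words of liver transcription factors were more frequent at clustered peaks than beside them, and their share could not be told from that at isolated peaks. The words, searched on both strands, were CAAAGTCCA for HNF4A, TGTTTAC for FOXA, TTGCNNAA for C/EBP and the homeodomain word GTTAATNAT. At least 1 of these was within 100 bp of the summit in 506 of 2620 clustered peaks (19.3%, 17.8 to 20.9%). In 4764 windows of the same length 2 kb away that overlapped no peak, the share was 12.03%, which is 7.29 points lower (interval of the difference 5.54 to 9.08). Isolated peaks had 20.2%, and the clustered peaks differed from them by −0.889 points (−2.61 to 0.891). Distal CAC peaks had 13.3%, lower than clustered peaks by 6.002 points (4.49 to 7.60). The comparison of clustered with isolated peaks also had an interval that included 0 within each of 3 groups by fold enrichment and each of 3 by GC content. With summits linked within 5 kb, which left 658 clustered peaks, the difference was −3.32 points (−6.11 to −0.163), an interval that excluded 0. Clustered peaks with 2, 3, 4, and 5 or more neighbours had a word in 19.5%, 17.9%, 22.5% and 16.7%. At least 2 of the liver words were found in 27 clustered peaks (1.03%).

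The words of HNF4A, FOXA and C/EBP were more frequent at the clustered summits than 2 kb away. For HNF4A, 34 clustered peaks (1.298%) held the word compared with 0.126% of the windows nearby. For FOXA the shares were 5.0% and 3.02%, and for C/EBP 12.7% and 8.71%. A nuclear receptor word of the DR1 type, GGNCAAAG, which can overlap the HNF4A word, was found in 8.09% and 3.55%, a difference of 4.54 points (3.41 to 5.75). The E-box CACGTG (3.97% and 2.94%) and the GC box CCCGCCC (2.06% and 1.43%) had smaller differences with intervals above 0. For STAT5 (TTCCNGGAA, 0.992% and 0.630%) and AP-1 (TGANTCA, 7.29% and 6.13%) the interval included 0. The YY1 word GCCATNTTG was less frequent at clustered summits (0.611%) than nearby (1.09%, difference −0.481 points, −0.891 to −0.0222) and than at isolated summits (1.05%). Of 17 features compared between clustered and isolated peaks, the interval excluded 0 for the CTCF matrix, YY1 and exons. It is not read for nearness to a start or to a CTCF peak, which are also among the 17 and rest on distances the rule used. The intervals are not adjusted for the number of features, and they treat peaks as independent although peaks of 1 cluster are neighbours. A word is a description of sequence and not a binding site.

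**Figure D2:**
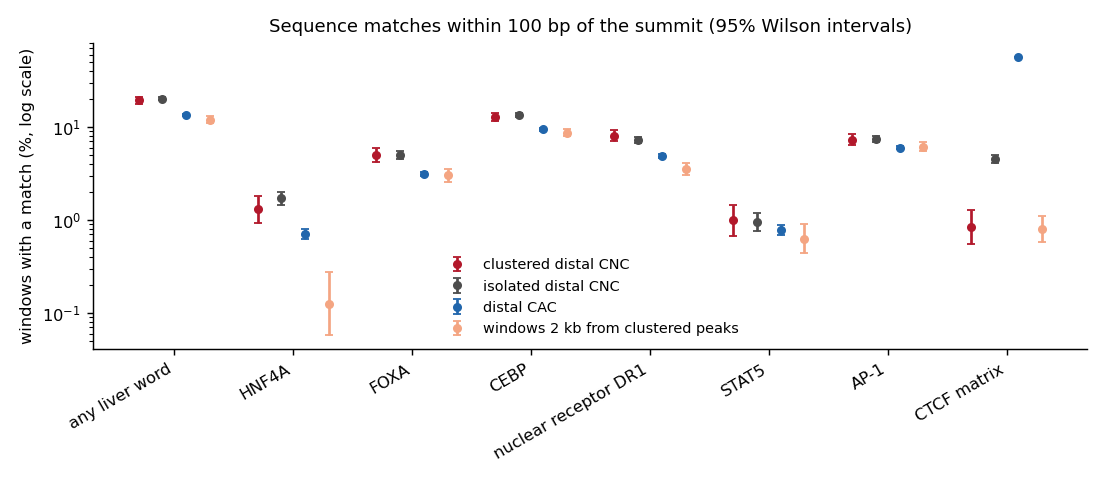
Share of windows with a sequence match within 100 bp of the summit (percent, log scale) for clustered, isolated and distal CAC peaks and for windows 2 kb from clustered peaks, with 95% Wilson intervals. The liver words of clustered and isolated peaks lie close together (any word, 19.3% and 20.2%), above the windows nearby (12.03%). The CTCF matrix is matched in 0.840% of clustered, 4.50% of isolated and 56.6% of distal CAC peaks. Overlap with CTCF peaks was used to define the CNC and CAC classes.

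**Figure D3:**
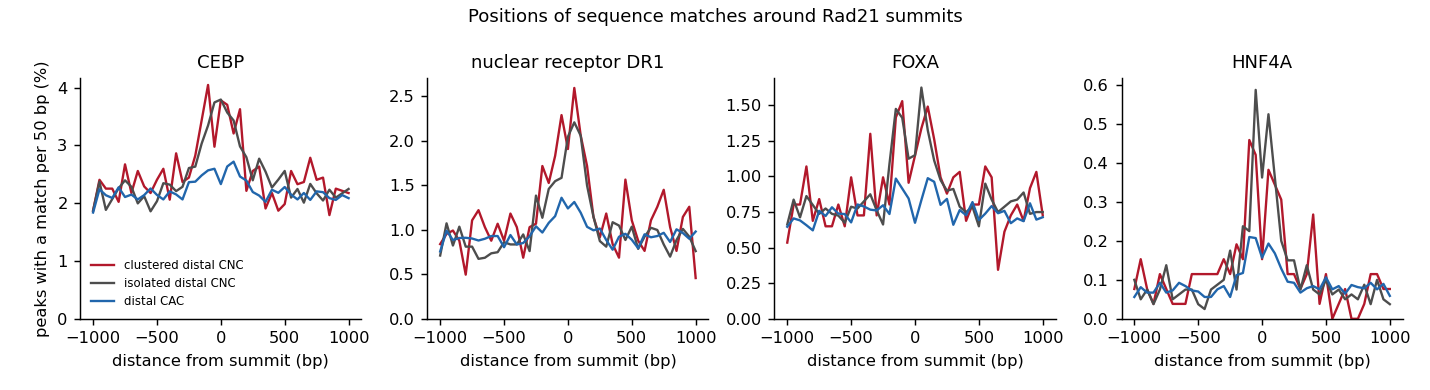
Share of peaks with a match to each of 4 words per 50 bp bin (percent) against distance from the Rad21 summit in bp. Lines are clustered, isolated and distal CAC peaks. In the central bin the C/EBP word is found in 3.78% of clustered, 3.79% of isolated and 2.33% of distal CAC peaks, and in the 22 bins at least 500 bp from the summit it is found in 1.79 to 2.79% of clustered peaks (median 2.27%).

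Most clustered peaks lay in introns or intergenic DNA. Introns of any annotated gene held 1362 clustered peaks (52.0%, 50.1 to 53.9%) and 52.4% of isolated peaks, a difference of −0.449 points (−2.65 to 1.75). With −log10 q of at least 10 in the Rad21 list, the difference was −12.3 points (−21.5 to −1.97). Exons held 2.37% and 4.32% (difference −1.95 points, −2.65 to −1.17). The exonic shares were not compared at matched distance from a start. A transcript start lay within 10 kb of 26.9% of clustered and 34.9% of isolated peaks, and a CTCF peak within 1 kb of 17.7% and 17.0%. Distance to starts and overlap with CTCF peaks were both used to choose the peaks and the neighbours that count, so these shares are descriptions with no test. Median GC content of the window was 48.8% in both classes. Across the autosomes, the clustered share of distal CNC peaks ranged from 14.9% on chromosome 4 to 21.9% on chromosome 15.

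The position of whole clusters was described beside that of single isolated peaks, with no test. Of the 910 clusters, 406 (44.6%) were contained in a single protein-coding gene, and of the isolated peaks 4336 of 8014 (54.1%) were inside one. Of the clusters, 118 (12.97%) extended across a protein-coding gene start. The median distance to the nearest protein-coding start was 20885.5 bp. A CAC peak lay between the first and last summit of 372 clusters (40.9%), and 398 (43.7%) had no CTCF summit inside. On both sides a CAC summit was present within 50 kb of 713 clusters (78.4%), at a median distance of 13508 bp. The same was so for 5121 isolated peaks (63.9%).

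The cluster with the most peaks lay 63943 bp from the start of Bdh1, which encodes an enzyme of ketone body metabolism. Its 10 peaks extended over 54863 bp of intergenic DNA on chromosome 16, from summit 31522145 to 31577008. Their fold enrichment ran from 2.84 through a median of 3.85 to 6.32. None held a liver word or a CTCF match, and 2 CAC peaks lay between them. A cluster of 9 peaks in introns of Foxn3, a forkhead repressor, had values from 2.16 to 4.35, and 3 of its peaks held a liver word. Another 9 were in introns of Atp8b1, a phospholipid flippase of the bile canalicular membrane, at 2.46 to 4.99, again with 3 word-bearing peaks. The 9 peaks in introns of Nav2, a neuron navigator gene, were uniformly weak (2.27 to 3.02) and held no liver word.

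Clusters with 8 peaks lay in Bcl2l1 and Foxo3. In Bcl2l1, which encodes the anti-apoptotic protein BCL-XL, all 8 peaks were intronic, with fold enrichment from 2.71 to 4.55. Foxo3, a forkhead factor inhibited by insulin signalling, held the densest of the named clusters, with 8 peaks over 15695 bp. The values there were low (2.01 to 3.27, median 2.26), and the nearest peak was 1136 bp from the gene start, just beyond the limit of the rule. The nearest CAC peaks were outside the cluster, 1 of them 953 bp away, but 1 CTCF summit lay between its first and last summits.

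Strength differed among clusters of similar size. The 7 peaks near B130024G19Rik ran from 3.78 to 8.31 with a median of 6.10, and no CTCF summit lay among them. Near Gm9747 the 7 values ran from 2.998 to 5.88 (median 4.99), and near Lrig1, a negative regulator of EGF receptor signalling, from 2.76 to 6.75 (median 4.11). In Fras1, an extracellular matrix gene, they ran from 3.48 to 6.32. Pfkfb3, an enzyme that sets the level of a glycolytic activator, had 7 peaks at 2.83 to 6.30 in intergenic DNA, the nearest 29319 bp from its start. Clusters of 6 peaks near Gm5356 (3.10 to 8.02) and Eif1a (3.07 to 8.34) were among the 10 with the highest summed fold enrichment. Every peak of the B130024G19Rik and Fras1 clusters exceeded every peak in Foxo3 and Nav2.

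**Figure D4:**
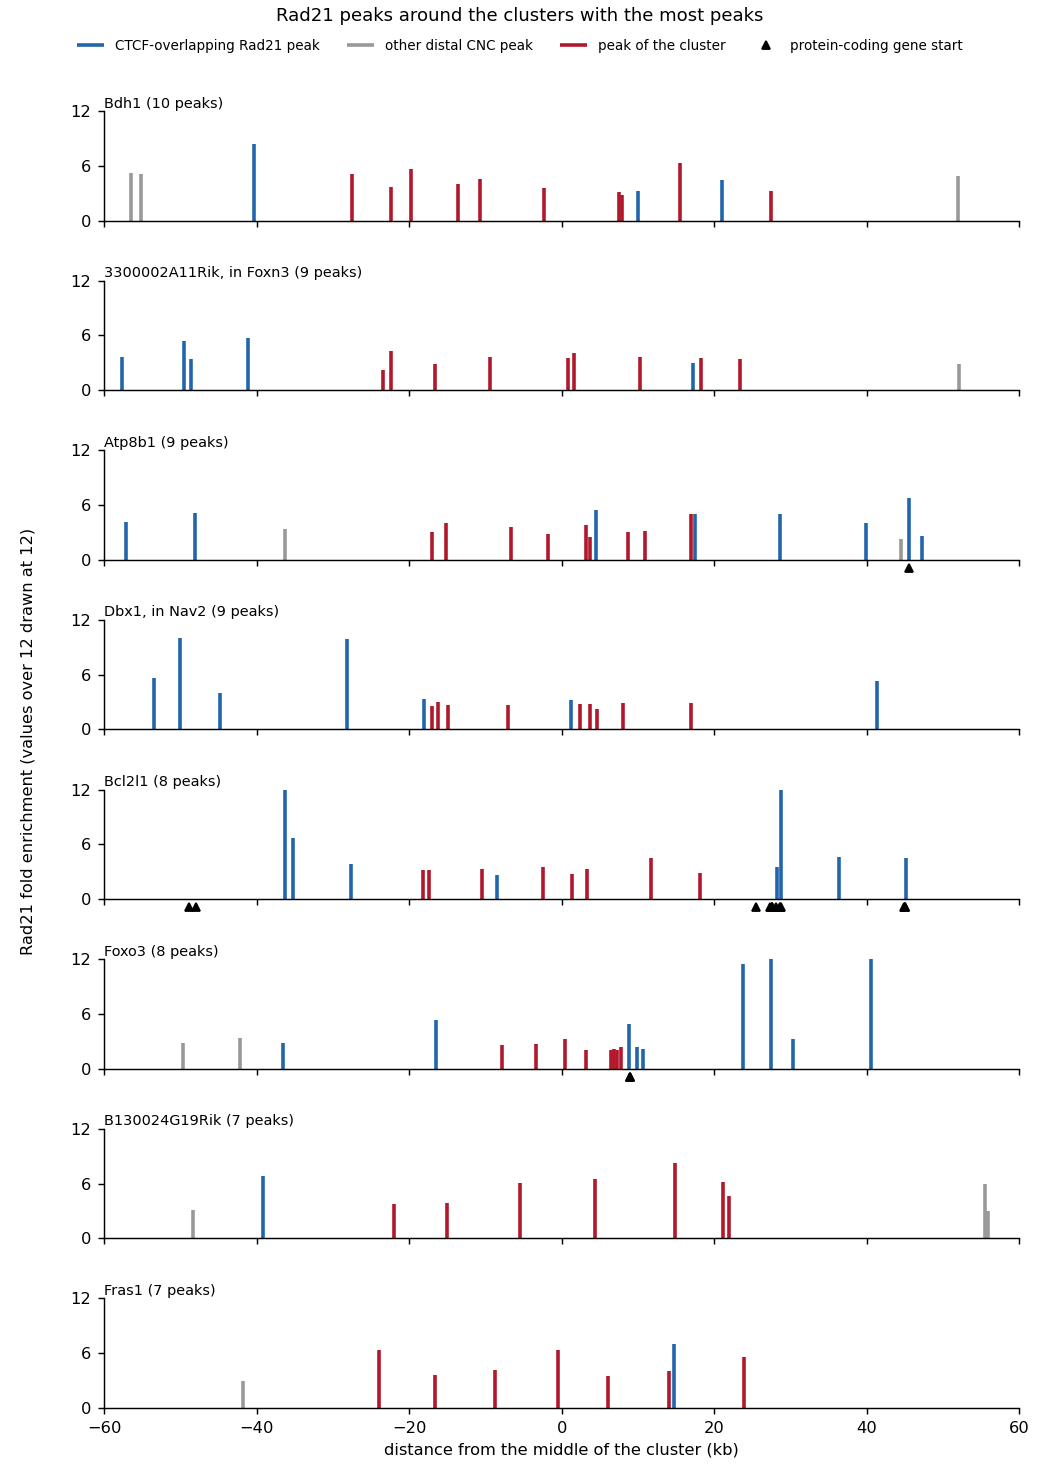
Rad21 peaks within 60 kb of the middle of 8 clusters with the most peaks, drawn to scale as lines at their distance from the middle (kb) with height equal to fold enrichment. Red lines are peaks of the cluster, grey lines other distal CNC peaks, blue lines peaks that overlap a CTCF peak, and triangles protein-coding gene starts. The tallest red line is 8.31, near B130024G19Rik, and the B130024G19Rik and Foxo3 clusters have no blue line between their peaks. CTCF peaks that overlap no Rad21 peak are not drawn, and 1 CTCF summit lay inside the Foxo3 cluster.

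A larger share of the listed hepatocyte genes than of all genes lay near clustered peaks. Of 21281 autosomal protein-coding genes, 1118 (5.25%) had a transcript start within 50 kb of a clustered peak. Of 448 genes in 11 hepatocyte lists, 95 (21.2%, 95% Wilson interval 17.7 to 25.2%) did, near 83 clusters. The lists were chosen with earlier results of these data known, so the shares are descriptions. They include circadian, immediate early and cytokine signalling genes, and none was checked for expression in hepatocytes. Isolated peaks were within 50 kb of 35.7% of all genes and 63.2% of the hepatocyte genes, and distal CAC peaks of 80.7% and 89.5%. A Rad21 peak at the gene's own start went with the shares. Among the 11365 genes with one, 7.87% were near a clustered peak, compared with 2.26% of those without. Among the 326 hepatocyte genes with one, 25.8% were.

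By list, the share was highest for growth hormone and cytokine signalling (8 of 24, 33.3%), lipid and bile acid metabolism (11 of 36, 30.6%), glucose metabolism and insulin response (7 of 23, 30.4%) and apolipoproteins and lipoprotein handling (6 of 20, 30.0%). It was 25% for hepatocyte transcription regulators (9 of 36), 24.1% for plasma proteins and carriers (14 of 58), 23.5% for amino acid and urea metabolism (8 of 34) and 20.5% for conjugation and transport (16 of 78). Lower shares were found for circadian clock and immediate early genes (5 of 34, 14.7%), coagulation and complement (4 of 32) and P450 enzymes (7 of 73, 9.59%). Neighbouring genes of a list can be counted through the same peak. Apoa1, Apoa4 and Apoc3, which are 3 of the 6 apolipoprotein list genes, were counted through 1 peak of 2.99, and 6 Ugt1a genes of the conjugation list through 1 peak of 3.37. Intervals of these shares treat genes as independent, are wide and overlap, so no order among the lists is read from them.

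Markers of other liver cell types were near clustered peaks at a share close to the background, with 2 of 41 (4.88%, 1.35 to 16.1%). These were Oit3 of sinusoidal endothelium (1 of 10) and Sox9 of cholangiocytes (1 of 6). No marker of liver macrophages (0 of 9), stellate cells (0 of 9) or lymphocytes (0 of 7) was near a clustered peak. Their Wilson upper limits were 29.9%, 29.9% and 35.4%, well above the background share, so these lists are too short to show a depletion. The same held for 17 neuron markers and 20 genes of skeletal and heart muscle, whose Wilson upper limits of 18.4% and 16.1% were also above the background. Cytosolic ribosomal protein genes, which all cells use, had 6 of 78 (7.69%), and olfactory receptors 4 of 1081 (0.370%).

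**Figure D5:**
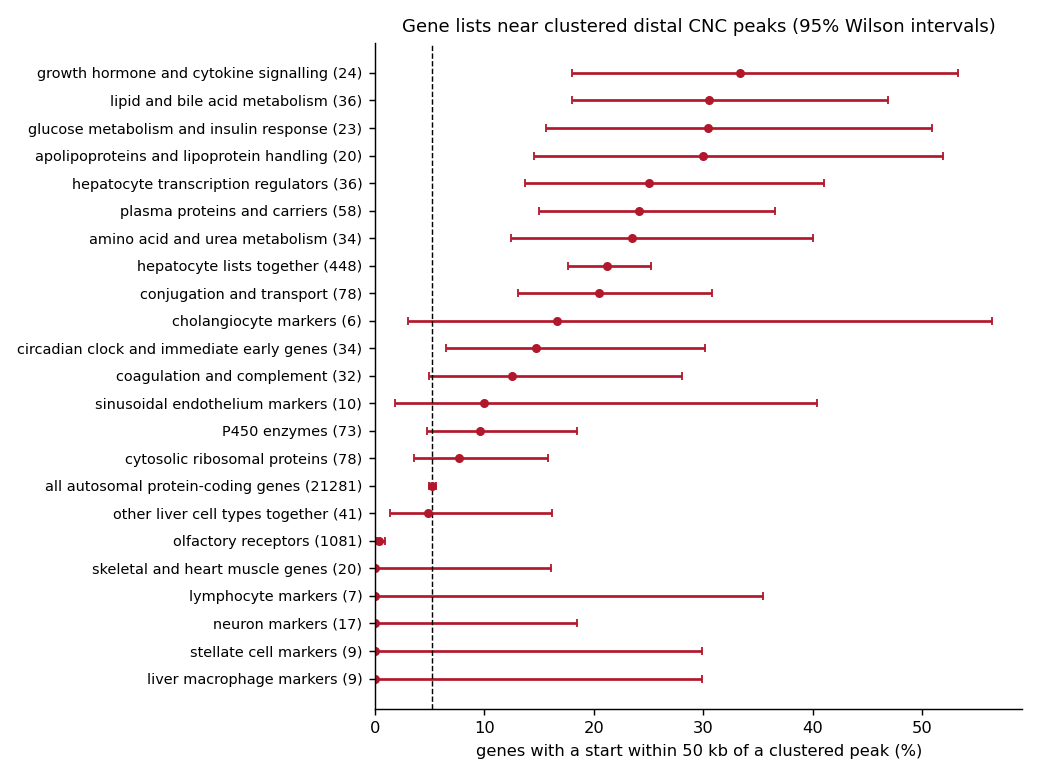
Percent of genes of each list with a transcript start within 50 kb of a clustered peak, with 95% Wilson intervals and the number of genes in parentheses. The dashed line is the share of all autosomal protein-coding genes (5.25%). The hepatocyte lists together lie at 21.2% and the markers of other liver cell types together at 4.88%.

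The strongest clustered peaks near the hepatocyte genes with the highest summed fold enrichment are shown in the same form. This set was chosen after the values were seen.
Ghr, chr15:3414697-3414897: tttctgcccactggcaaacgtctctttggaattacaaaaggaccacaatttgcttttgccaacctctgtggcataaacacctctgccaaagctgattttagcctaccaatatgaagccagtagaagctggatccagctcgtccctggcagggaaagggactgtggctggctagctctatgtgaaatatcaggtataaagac
Dgat2, chr7:106354977-106355177: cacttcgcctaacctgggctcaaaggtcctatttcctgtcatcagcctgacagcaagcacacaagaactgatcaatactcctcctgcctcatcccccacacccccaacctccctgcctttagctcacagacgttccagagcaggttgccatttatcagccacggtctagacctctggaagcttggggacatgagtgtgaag
Cyp3a11, chr5:146708876-146709076: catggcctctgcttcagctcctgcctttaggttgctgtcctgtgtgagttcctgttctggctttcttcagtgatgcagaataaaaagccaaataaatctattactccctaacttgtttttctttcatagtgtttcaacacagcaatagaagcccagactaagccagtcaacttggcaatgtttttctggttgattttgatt
Insig1, chr5:28373465-28373665: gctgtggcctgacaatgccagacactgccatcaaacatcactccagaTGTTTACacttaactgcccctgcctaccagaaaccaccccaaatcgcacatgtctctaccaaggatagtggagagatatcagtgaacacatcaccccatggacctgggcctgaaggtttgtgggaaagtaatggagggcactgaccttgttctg
The Insig1 window held a FOXA word, and the windows near Ghr, Dgat2 and Cyp3a11 held none of those searched.

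Ghr, the growth hormone receptor gene, had 7 clustered peaks within 50 kb in 2 clusters, with a summed fold enrichment of 28.3. Of these, 5 lay in introns of Ghr at 2.86, 3.02, 3.53, 3.51 and 7.08. The remaining ones, at 2.92 and 5.41, were intergenic, and each held a C/EBP word. The peak at 7.08, shown above, lay 6847 bp from a start and exceeded every other Ghr value. Egfr, the epidermal growth factor receptor gene, had 6 peaks in 2 clusters within a narrow range (2.80 to 3.43). Il6ra (interleukin-6 receptor, 4 peaks, 2.76 to 3.50) and Met (hepatocyte growth factor receptor, 4 peaks, 2.97 to 3.56) were similar.

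Among genes of lipid metabolism, Dgat2, which catalyses the last step of triglyceride synthesis, had 6 clustered peaks at 3.08 to 5.88. Insig1, which retains the sterol sensor SCAP in the endoplasmic reticulum, had 7 at 2.46 to 4.18, the nearest 24387 bp from a start. Lpin1, a phosphatidate phosphatase, had 5 (2.25 to 5.15). In the lipoprotein list, Lipc (hepatic lipase) had 4 peaks at 2.77 to 4.08, all intronic, and Apob, the structural protein of very low density lipoprotein, had 3 at 2.98 to 5.06. Abca1, a cholesterol exporter, had 3 at 2.46 to 2.73, and Apoa1 had 1 at 2.99, in a cluster contained in the neighbouring gene Sik3.

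Among transcription regulators, Zbtb20, a zinc finger repressor, had 6 clustered peaks in 2 intronic clusters at 2.85 to 4.91. Cebpa, which encodes C/EBPα, had 5 intergenic peaks at 2.28, 2.17, 2.44, 2.07 and 4.52, the nearest 2733 bp from its start. All but the peak at 2.07 held a FOXA word. Cux2, a homeobox repressor, had 5 at 2.41 to 3.58, and Nr1h4, the bile acid receptor FXR, had 3 at 3.10 to 4.12. In the glucose list, the cluster in Foxo3 was followed by Pcx (pyruvate carboxylase, 4 peaks, 2.74 to 3.32), Insr (insulin receptor, 3 peaks, 2.82 to 3.48) and Sik1 (salt-inducible kinase, 3 peaks, 2.51 to 3.26).

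Of the genes of drug metabolism, 7 of 73 P450 genes (9.59%, 4.72 to 18.5%) were near 6 clusters. The interval of this share includes the 5.25% of all genes. In the conjugation and transport list, 16 of 78 genes (20.5%) were near 7 clusters. Cyp3a11, a P450 enzyme that oxidizes many drugs, had 6 intergenic clustered peaks at 5.17, 3.69, 4.73, 3.07, 2.90 and 3.98. The nearest CTCF peak was 48074 bp from the edge of the closest of these peaks. Cyp2d34 had 6 at 2.67 to 4.74, Cyp3a16 had 3 at 3.32 to 4.47 and Cyp2d26 had 3 at 2.58 to 4.93. In the conjugation and transport list, Slco1a4, an organic anion transporter gene, had 5 at 2.72 to 4.20. A single cluster of 3 peaks (2.66 to 4.50) lay near Gstm1, Gstm2 and Gstm3, the glutathione transferases. Members of such gene families share clusters and are not independent.

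Among amino acid enzymes, Hpd, an enzyme of tyrosine breakdown, had 4 peaks (2.70 to 5.33). They lay in introns of annotated genes, but no single protein-coding gene contained the cluster. Bhmt2 and Dmgdh shared 4 (2.99 to 3.98) in introns of Dmgdh. In the plasma protein list, Gc (vitamin D binding protein) had 4 (2.84 to 5.47), Azgp1 (zinc-alpha-2-glycoprotein) had 4 (2.99 to 6.30), and Saa1 and Saa2, acute-phase apolipoproteins, shared 4 (3.11 to 4.39). In the coagulation and complement list, Masp1, a protease of the lectin pathway, had 7 intronic peaks of low value (2.502 to 3.41). The fibrinogen genes Fga, Fgb and Fgg shared 1 peak at 2.40. Alb, the gene of serum albumin, named after its values were seen, had 1 clustered peak within 50 kb (5.79, at 35438 bp).

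Among circadian and immediate early genes, Hlf and Cry2 each had 4 clustered peaks, and Npas2 and Klf10 each had 3. Their fold enrichment ran from 2.66 to 4.44 (Hlf), 2.78 to 4.14 (Cry2), 3.35 to 4.62 (Npas2) and 3.61 to 4.83 (Klf10). Of the 2 genes of other cell types, Oit3 had 4 peaks at 2.70 to 3.27 in a cluster contained in Ccdc109a, and Sox9 had 1 at 3.79, 49798 bp from a start. The ribosomal protein genes with the highest sums, Rps6 (4 peaks), Rpl9 (3), Rps13 (3) and Rpl31 (2), were near clusters whose nearest starts were those of Acer2, Klb, Plekha7 and Npas2. The olfactory receptor genes Olfr225, Olfr763, Olfr9 and Olfr223 were near clusters whose nearest starts were those of Mprip and Mettl7b. Hepatocyte list genes also had clusters with another gene's start nearest. Among others, this was so for the clusters near Nr1h4 (nearest start Slc17a8), Il6ra (She), Lpin1 (Ntsr2), Azgp1 (Smok3a) and Apoa1 (Sik3), and for 1 cluster each near Dgat2 (Uvrag) and Gc (Npffr2). Nearness to a start does not show which gene, if any, a cluster contacts.

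Starts of the genes nearest to clustered peaks were examined for cohesin of their own. Among all 21281 genes, 53.4% had a Rad21 peak within 1 kb of a start and 11.4% had a CNC peak there. The clustered peaks had 836 nearest protein-coding genes, of which 507 were also nearest to an isolated peak. Of the 329 that were nearest to clustered peaks only, 263 (79.9%) had a Rad21 peak within 1 kb of a start, compared with 3092 of 4337 genes (71.3%) nearest to isolated peaks only. For a CNC peak at the start the shares were 23.1% and 18.01%. The Rad21 list, overlap with CTCF and distance to starts were all used by the rule, and the 507 shared genes are left out, so these shares are descriptions with no test.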

How the data were processed

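The authors mapped ChIP-seq reads of female mouse liver to mm9 with Bowtie2, excluded reads not uniquely mapped, called peaks with MACS2 on the pooled libraries of each antibody, and removed blacklisted peaks and peaks made only of identical reads. The 2 deposited lists give, per peak, a score, a fold enrichment (a ratio), −log10 p and −log10 q, and a summit offset. No per-library column was present (0 unused).

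Here, peaks were classed by overlap of at least 1 bp and by distance to starts of GENCODE transcripts of the same build. Words and the CTCF matrix (learned on odd-numbered autosomes and applied to even-numbered ones, and the reverse) were searched in the mm9 sequence with pysam 0.24.0, numpy 2.4.6 and pandas 2.3.3. Shares have 95% Wilson intervals, and differences Newcombe intervals, which cover counting error only. Plots were drawn with matplotlib 3.10.9. Overlap, clustering, motif and interval steps were tested on simulated data.

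The members and lists were chosen with earlier results of these data known. Named clusters are the 10 with most peaks and the 10 with the highest summed fold enrichment. Named genes are up to 4 per list with the highest summed fold enrichment of clustered peaks within 50 kb. Sequences shown are the strongest peak of the 6 largest named clusters, with chromosome 18 left out. Some genes that this rule names, and 1 word's own share, are not reported here. Listed symbols without a match in the annotation (Hmgcs1, Ciart, Vsig4 and Map2) were not used. Alternatives covered peak strength, the CTCF overlap, the distances and the window sizes.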

Additional observations from a re-analysis of the deposited data

Results flagged for a closer look

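The X chromosome was outside the comparisons above. On it, 27 of 186 distal CNC peaks (14.5%) met the same rule, in 9 clusters, and on the autosomes 17.4% did. The difference was not tested.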

How the results depend on the processing

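The number of clustered peaks and of clusters moved by over 1.5 times under every alternative except the distance to starts and, for clusters, the chaining of members only, which again gave 910. Against 2620 peaks in 910 clusters, there were 92 in 44 with −log10 q of at least 10 in the Rad21 list and 11 in 6 with a fold enrichment of at least 5. There were 5662 in 1761 when only CTCF peaks with −log10 q of at least 10 counted, 4162 in 1367 when a CTCF peak had to cover at least 50%, and 1681 in 595 with no CTCF peak within 1 kb. Linking summits within 5 kb gave 658 in 266 and within 25 kb 5604 in 1526, and at least 3 others gave 809 in 291. Over 2.5 kb from starts, 2284 in 787 were left.

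The lower share of CTCF matches than at isolated peaks kept its direction in 5 of 5 alternatives. With −log10 q of at least 10 the difference was −3.56 points, with an interval that included 0 (−4.26 to 0.493), and few peaks remained. For liver words the interval included 0 in 3 of 4 alternatives, the exception being −3.32 points (−6.11 to −0.163) with summits within 5 kb. With 1 peak per cluster it was 1.996 points (−0.735 to 4.94). The intronic difference became −12.3 points (−21.5 to −1.97) with −log10 q of at least 10, and its interval included 0 in the 2 other alternatives. The causes were not tested.

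Genes near clustered peaks were 2.89% of all genes and 14.5% of the hepatocyte lists within 25 kb, and 9.29% and 28.6% within 100 kb. The shares were 0.169% and 0.670% with −log10 q of at least 10, and 1.499% and 5.36% with summits within 5 kb. The hepatocyte share was the higher in each of these. With −log10 q of at least 10, however, few genes remained and the intervals overlapped (0.122 to 0.234% for all genes and 0.228 to 1.95% for the hepatocyte lists).

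No paired analysis was possible because the lists were called on pooled libraries, so no value carries a replicate number. For the same reason no replicate was left out in turn. Peaks below the calling threshold, the depth of each pool and the variation between mice limit every count above.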
